A study of Canis lupus familiaris with 28 samples.

Results

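The genes described here are 10 mediators and brakes of acute inflammation, TNF, IL1B, IL1RN, IL6, IL8, PTGS2, NFKBIA, TNFAIP3, NFKB1 and ICAM1, out of 34382 names of genes or transcripts on the canine array. They were taken by name, and every probe that carries one of these names was kept, which gave 21 of 43603 probes. Whole blood RNA of 20 dogs with atopic dermatitis (AD dogs) and of 8 healthy dogs was measured, with 1 two-color array for each dog. Whole blood is the source named by the sample labels, while the paper describes the RNA as that of peripheral blood nuclear cells. The dog's RNA carried Cy5, and Cy3 marked a common reference on every array, pooled RNA of 13 other healthy dogs. All 28 were client-owned dogs of various breeds and both sexes with overlapping age ranges. AD dogs were bled when skin signs were visible, before intradermal testing and after a period without anti-inflammatory drugs, and the healthy dogs were blood donors, with breeds and sexes that were not matched to those of AD dogs. Blood went into tubes that stabilize RNA, and no cells were stimulated or sorted. The values below are log2 ratios of dog to reference, centered on each array's median, unless a processed signal in arbitrary intensity units is named.

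In resting leukocytes NF-kB dimers, of which NFKB1 encodes a precursor subunit, are held in the cytoplasm by inhibitors such as the product of NFKBIA. Microbial products, TNF or interleukin 1 lead to the loss of this inhibitor, and the dimers then enter the nucleus and switch on cytokines, chemokines, adhesion molecules and also NFKBIA and TNFAIP3, whose products end the signal again. Canine atopic dermatitis is an allergic skin disease, and blood samples the circulating leukocytes, not the skin.

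Probes of 60 bases report each gene, and where a gene had several, their agreement across dogs is given. Probes of TNF, IL8 and NFKBIA are printed because these genes were each measured in more than 1 place of the transcript, and the capitals mark G and C.
TNF A_11_P000001224: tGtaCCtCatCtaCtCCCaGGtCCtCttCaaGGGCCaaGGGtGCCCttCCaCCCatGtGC
TNF A_11_P055276: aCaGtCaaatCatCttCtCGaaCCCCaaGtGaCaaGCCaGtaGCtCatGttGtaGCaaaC
IL8 A_11_P054906: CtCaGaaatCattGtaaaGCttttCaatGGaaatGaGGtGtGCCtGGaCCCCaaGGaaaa
IL8 A_11_P053586: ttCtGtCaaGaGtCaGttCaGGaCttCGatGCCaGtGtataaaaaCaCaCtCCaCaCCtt
NFKBIA A_11_P092766: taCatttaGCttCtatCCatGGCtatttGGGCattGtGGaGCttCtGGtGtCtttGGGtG
NFKBIA A_11_P202133: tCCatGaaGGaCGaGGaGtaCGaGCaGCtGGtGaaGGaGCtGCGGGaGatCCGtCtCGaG
In the files, which use the canFam3 build, these lie at chr12:1075962-1076021 and chr12:1075319-1075855 (plus strand) for TNF, at chr13:62436398-62436736 and chr13:62436280-62436339 (plus strand) for IL8, and at chr8:14101519-14101578 and chr8:14103181-14103240 (minus strand) for NFKBIA. The span of 537 bases for the second TNF probe and of 339 bases for the first IL8 probe exceeds the probe length, so both cross at least 1 exon junction. G and C make up 58.3% of the first and 45.0% of the second TNF probe, 41.7% and 43.3% of the IL8 probes, and 45.0% and 60.0% of the NFKBIA probes.

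In the dog's channel, the share of spots well above background was 84.3% to 90.3% on arrays of healthy dogs against 51.7% to 87.4% for AD dogs. There were 8 slides and 5 scan days, and the healthy dogs occupied slides 2 and 3 and 1 scan day of their own, so that scan day and group cannot be told apart. The scan day of lowest signal held 6 AD dogs on slides 7 and 8. With limma, 0 of 30202 probes past the filter on signal (a group median above 100 in either channel) were called, that is, had an adjusted p of 0.085 or less, and 1847 (6.12%) had an unadjusted p under 0.05. Leukocyte markers were measured in these samples: all 8 monocyte markers and 8 of 10 neutrophil markers passed the filter, and so did 4 of 5 red cell and reticulocyte markers.

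Of the 10 genes, 9 had at least 1 probe past the filter on signal, which left 15 of the 21 probes, and PTGS2 had none. PTGS2 encodes the inducible cyclooxygenase that makes prostaglandins. Its single probe was well above background in 4 of 20 AD dogs and 3 of 8 healthy dogs, with processed signals of 11.6 to 97.3 (median 34.1) in AD dogs and 28.4 to 68.3 (median 45.8) in healthy dogs. The log2 ratio at these low signals spanned -1.51 to 1.99 in AD dogs, and healthy dogs gave -0.96 to 0.42, a range lying inside that of AD dogs. Without the filter on signal, where 7.17% of 43603 probes had an unadjusted p under 0.05, PTGS2 had an unadjusted p of 0.712.

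**Figure D1:**
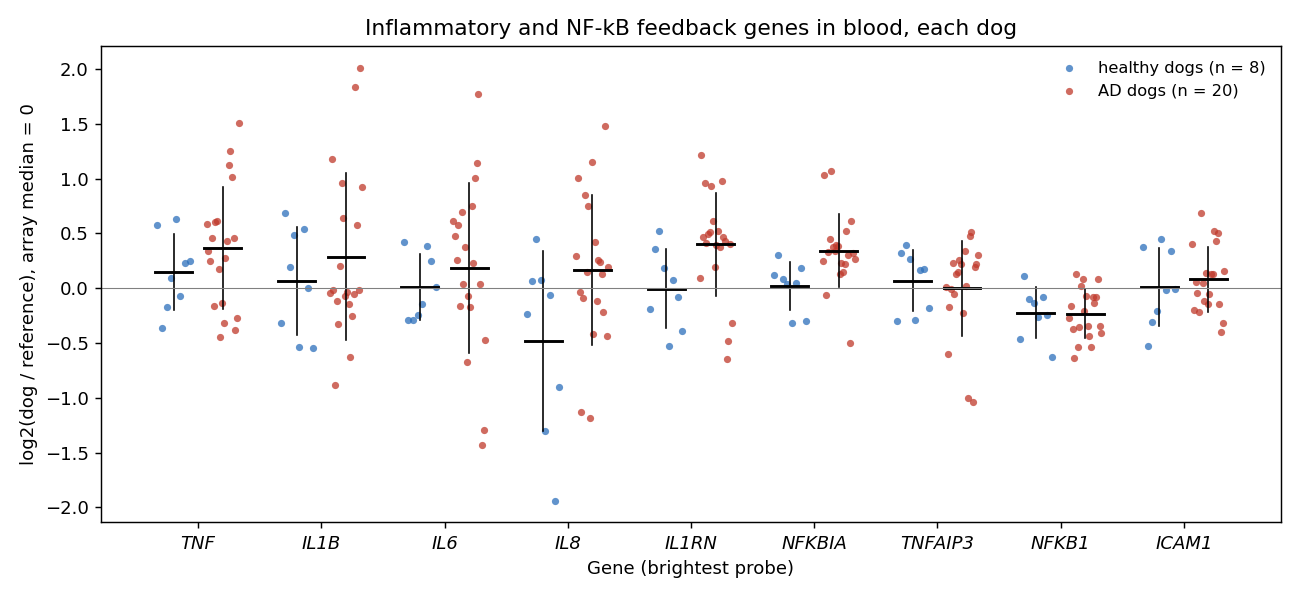
Points give the log2 ratio of a dog to the reference pool (array median at 0) for the brightest probe of a gene, in 8 healthy dogs (blue) and 20 AD dogs (red); bars give the mean and 1 SD. The groups overlapped for all 9 genes, IL8 reached down to -1.94 in healthy dogs, and the NFKBIA and IL1RN values of most AD dogs lay above 0.

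The question of the comparison was whether blood transcripts of these mediators differed between AD dogs and healthy dogs. None of the 15 probes was called: the adjusted p of limma was 0.509 or higher for each, against a lowest value of 0.490 over all 30202 probes. Without adjustment, 5 probes of 3 genes, IL8, IL1RN and NFKBIA, had a p under 0.05, all with the higher mean in AD dogs, where 1.65% of all probes tested had such a p with the higher and 4.46% with the lower mean. The log2 difference was above 0 for 13 of the 15 probes and for 47.9% of all probes, and its median was 0.29 for the 15 probes and -0.01 for all. Without the healthy dogs of slide 3, 0 of the 15 probes had an unadjusted p under 0.05, and fewer of all probes tested had such a p. Without the healthy dogs of slide 2, more of the 15 probes had such a p than with all dogs. These counts are given in the closing section. The 15 probes are not independent, since 4 of them measure IL8. In bulk blood, fewer cells of a type and less RNA per cell cannot be told apart.

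**Figure D2:**
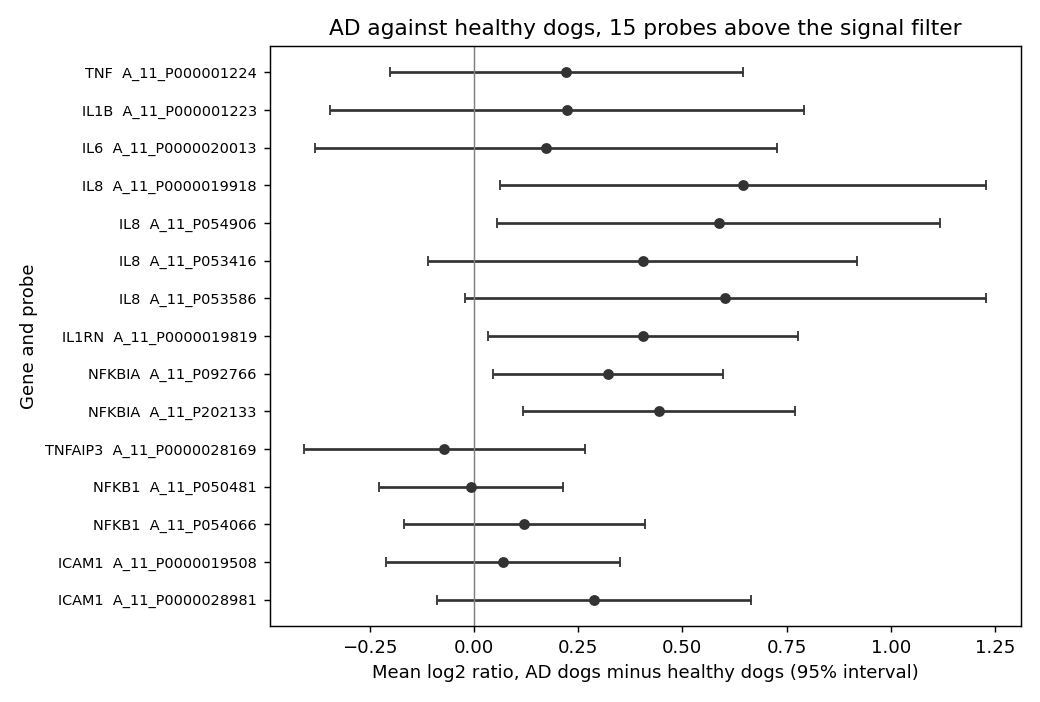
Difference of the mean log2 ratio, AD dogs minus healthy dogs, with its 95% interval from limma for the 15 probes past the filter on signal (rows, gene and probe). The intervals of 2 IL8 probes, the IL1RN probe and both NFKBIA probes lay above 0 before adjustment for the number of probes, and those of TNF, IL1B, IL6, TNFAIP3, NFKB1 and ICAM1 held 0.

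Among the proinflammatory cytokines, TNF, which opens the endothelium and activates NF-kB in most cells, was well above background in all 28 dogs by its brightest probe. The log2 ratio was -0.44 to 1.51 (median 0.39) in AD dogs and -0.36 to 0.63 (median 0.16) in healthy dogs. The ranges overlapped, with 4 AD dogs above the highest and 2 below the lowest healthy dog. The difference of means was 0.22 ± 0.21 (SE), with an adjusted p of 0.873, and it was -0.001 after normexp background correction and loess. The dimmer TNF probe, well above background in 13 AD dogs and 8 healthy dogs, gave -0.05 ± 0.20 (SE) without the filter. The correlation between the 2 probes was r = 0.36 in AD dogs (rho = 0.38, permutation p = 0.124, adjusted p = 0.195 over 30 same-gene correlations, r = 0.16 without the 2 farthest dogs, 0.66 within slides) and 0.53 in healthy dogs (rho = 0.71, exact permutation p = 0.176).

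IL1B encodes interleukin 1 beta, a fever-inducing cytokine made mainly by monocytes and neutrophils. With its brightest probe the AD dogs spanned log2 ratios of -0.89 to 2.01 (median -0.03), and healthy dogs -0.54 to 0.69 (median 0.10). Among AD dogs 5 lay above the highest healthy dog, and the median was nonetheless the lower one. Its SD across AD dogs, 0.77, was larger than that of 91.3% of probes, and the difference of means, 0.22 ± 0.28 (SE), had an adjusted p of 0.896. That difference turned to -0.03 without the scan day of lowest signal and to -0.05 with array weights, so no direction is given.

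Of the other IL1B probes, A_11_P054421 (chr17:37022031-37022090) followed the brightest, with r = 0.76 in AD dogs (rho = 0.76, permutation p = 0.00014, adjusted p = 0.000525 over 30 same-gene correlations, r = 0.61 without the 2 farthest dogs), although it was well above background in 5 AD and 2 healthy dogs. The remaining probe, A_11_P000001227, has no position in the files. It was below the filter on signal, well above background in 8 AD and 5 healthy dogs, with a median signal of 36.8 in AD dogs. It did not follow the brightest probe in AD dogs (r = 0.07, rho = 0.02, permutation p = 0.761). Both sequences are printed because they name the same gene and are nearly alike, and capitals mark bases without an identical partner when they are aligned.
IL1B A_11_P000001223: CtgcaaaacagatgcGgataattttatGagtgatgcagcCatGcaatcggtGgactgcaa
IL1B A_11_P000001227: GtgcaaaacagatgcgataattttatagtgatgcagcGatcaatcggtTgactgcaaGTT
They share 54 bases, and 6 of each have no partner. The first lies at chr17:37021889-37021948 on the minus strand.

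IL6, a cytokine of the acute phase response, was well above background in 17 of 20 AD dogs and in all 8 healthy dogs. Its log2 ratio was -1.43 to 1.78 (median 0.25) in AD dogs and -0.29 to 0.42 (median -0.06) in healthy dogs. AD dogs extended beyond the healthy range on both sides, 8 above and 4 below. In the reference channel this probe was well above background on 23 of 28 arrays. The highest ratios, 1.78 and 1.14, came from slide 7, with low reference signals of 27.4 and 31.6. The dog signals there were 89.7 and 67.4, against 132.9 to 292.3 in healthy dogs. The 3 AD dogs without signal above background were the 3 dogs of slide 8, at -1.43, -1.30 and -0.47, and slides differed among AD dogs for this gene (moderated F test of limma, adjusted p = 0.0422, where 5.28% of probes had 0.085 or less). The difference of means was 0.17 ± 0.27 (SE), with an adjusted p of 0.917. It turned to -0.05 in the dog's channel alone and to -0.04 with the mean of the red cell markers as a covariate. A second IL6 probe, A_11_P053561, was well above background in 4 AD and 5 healthy dogs and did not follow the first in AD dogs (r = 0.06, rho = 0.08, permutation p = 0.814, adjusted p = 0.854).

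The widest difference belonged to IL8, the neutrophil-attracting chemokine now named CXCL8, whose 4 probes were well above background in all 28 dogs. With the brightest probe the log2 ratio was -1.19 to 1.48 (median 0.17) in AD dogs and -1.94 to 0.45 (median -0.15) in healthy dogs. No AD dog lay below the lowest healthy dog, 5 lay above the highest, and 18 of 20 exceeded the healthy mean. The 4 differences of means were 0.65 ± 0.28 (SE), 0.59 ± 0.26, 0.40 ± 0.25 and 0.60 ± 0.30, or 1.32- to 1.57-fold. The unadjusted p was 0.0299, 0.0301, 0.116 and 0.0559, and the adjusted p 0.712, 0.715, 0.866 and 0.829, all from limma.

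The IL8 difference rested on the healthy dogs of 1 slide. On slide 3 the 4 healthy dogs gave -1.94 to -0.06 (mean -1.05) with the brightest probe, and on slide 2 the other 4 gave -0.23 to 0.45 (mean 0.09). Without slide 3 the difference of the brightest probe was 0.08, with an unadjusted p of 0.821, and without slide 2 it was 1.22. The other 3 probes gave 0.07 to 0.27 without slide 3. The slides of AD dogs had means of -0.01 to 0.41, and the moderated F test of limma over the slides of AD dogs gave an adjusted p of 0.955. The lowest values, -1.94 and -1.30, came from healthy dogs 7 and 5, whose arrays had the highest GC contrast of the healthy dogs (0.51 and 0.70, against 0.50 for dog 1 of slide 2; the measure is the GC contrast defined below). Whether the dogs, the slide or base composition set these low values was not tested.

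**Figure D3:**
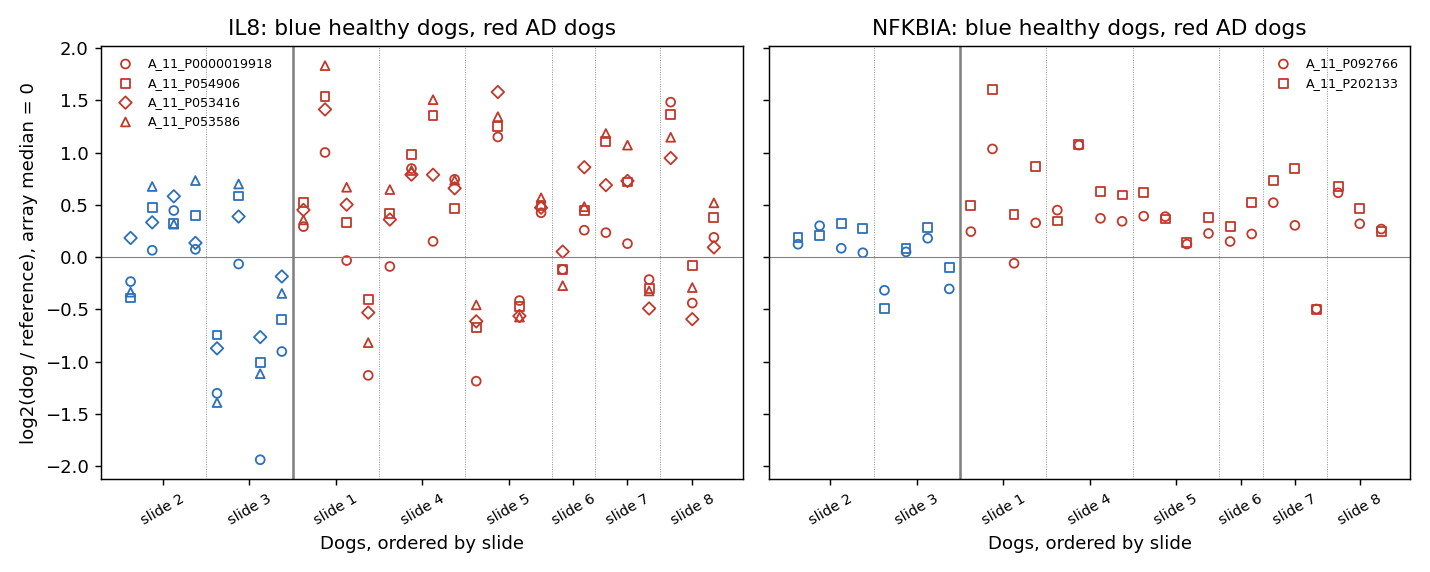
Log2 ratio of dog to reference for the 4 IL8 probes (left) and 2 NFKBIA probes (right), each column of symbols being 1 dog, ordered by slide, with healthy dogs in blue left of the thick line and AD dogs in red. Symbols of 1 dog stay together, and the lowest IL8 values, down to -1.94, belong to healthy dogs of slide 3.

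The 4 IL8 probes moved together from dog to dog. Over the 6 pairs of probes r was 0.80 to 0.96 in AD dogs (rho 0.75 to 0.92), with a permutation p adjusted over 30 correlations of 0.000171 or less, and 0.80 to 0.96 without the 2 farthest dogs. In healthy dogs r was 0.87 to 0.95 (rho 0.69 to 0.90, exact permutation, adjusted p at most 0.0121). Without the 2 farthest healthy dogs r was 0.55 to 0.97. The SD of IL8 across dogs exceeded that of 84.1% to 90.5% of probes in AD dogs and 89.96% to 98.4% in healthy dogs, while in the reference channel, which holds the same RNA on every array, the SD was 0.14 to 0.25 against 0.65 to 0.93 in the dog's channel.

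IL1RN encodes the interleukin 1 receptor antagonist, which blocks the receptor of IL1B and is released by monocytes and neutrophils. Its probe (chr17:37249267-37249326) was well above background in all dogs, and the log2 ratio was -0.64 to 1.21 (median 0.45) in AD dogs and -0.52 to 0.52 (median 0.00) in healthy dogs. Of AD dogs 17 lay above the healthy mean, 5 above the highest and 1 below the lowest healthy dog. The difference of means was 0.41 ± 0.18 (SE), a 1.32-fold difference, with an unadjusted p of 0.0329 and an adjusted p of 0.734. Taken from the dog's channel without the reference, the difference was 0.72 with an adjusted p of 0.0264, where 4.14% of probes had an adjusted p of 0.085 or less. The reference channel, which holds the same RNA throughout, was also higher on arrays of AD dogs, by 0.31 (adjusted p = 0.00337), and 39.1% of all probes had an adjusted p of 0.085 or less in it. Without slide 3 the difference in the ratio was 0.18, with an unadjusted p of 0.458.

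NFKBIA encodes IkB alpha, the inhibitor that NF-kB induces to stop itself. The brightest probe gave -0.50 to 1.07 (median 0.32) in AD dogs and -0.32 to 0.30 (median 0.07) in healthy dogs, and 12 AD dogs lay above every healthy dog. The second probe gave -0.50 to 1.604 (median 0.51) in AD dogs and -0.49 to 0.32 (median 0.20) in healthy dogs, with 16 AD dogs above every healthy dog and 1 below all of them. The same AD dog on slide 7 was lowest with both probes. In contrast to IL8, the healthy dogs were close together, with an SD of 0.22 and 0.27.

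The NFKBIA differences were 0.32 ± 0.13 (SE) and 0.44 ± 0.16, 1.25- and 1.36-fold. Limma gave an unadjusted p of 0.0229 and 0.00881 and an adjusted p of 0.657 and 0.509. The differences stayed above 0 in all alternatives, from 0.20 to 0.56 and from 0.29 to 0.66, with the lowest values without slide 3, where the unadjusted p was 0.266 and 0.176. An adjusted p of 0.085 or less was reached by the brightest probe in the dog's channel alone (0.0366), where 4.14% of all probes had such a value. For this probe the reference channel, with the same RNA throughout, also differed, by 0.26 (limma, adjusted p = 0.0026). The second probe reached it with array weights (0.0827), and the closing section gives the count over all probes for that setting. The 2 probes agreed across AD dogs with r = 0.87 (rho = 0.68, permutation p = 2e-05, adjusted p = 0.0001, r = 0.79 without the 2 farthest dogs) although their base composition differs as printed above. In healthy dogs r was 0.84 (rho = 0.62, exact permutation p = 0.0148, adjusted p = 0.0296), but 0.09 without the 2 farthest dogs.

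TNFAIP3, or A20, is a ubiquitin-editing enzyme and the second NF-kB-induced brake in the set. The brightest probe (chr1:30259728-30259787) was well above background in 18 AD dogs and 8 healthy dogs, with AD dogs at log2 ratios of -1.04 to 0.51 (median 0.14) and healthy dogs at -0.30 to 0.39 (median 0.17). Only 2 AD dogs exceeded the highest healthy dog and 3 fell short of the lowest. The difference was -0.07 ± 0.16 (SE), with an adjusted p of 0.949, and its sign turned in the dog's channel alone (0.23) and without slide 2 (0.03). The dimmer probe, detected in 6 AD and 6 healthy dogs, did not follow the brighter one (r = -0.31 in AD dogs, rho = -0.20, permutation p = 0.180). No direct test of NFKBIA against TNFAIP3 was made.

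NFKB1, the precursor of the p50 subunit, had the smallest SD of the 15 probes in AD dogs by its brightest probe. This probe gave -0.64 to 0.13 (median -0.24) in AD dogs and -0.63 to 0.11 (median -0.19) in healthy dogs, nearly the same interval. Its SD in AD dogs, 0.23, was larger than that of only 5.49% of probes. The difference of means was -0.01 ± 0.11 (SE), with a 95% interval of -0.23 to 0.21, and the second probe gave 0.12 ± 0.14 (SE, interval -0.17 to 0.41). The probes agreed moderately, with r = 0.52 in AD dogs (rho = 0.51, permutation p = 0.0181, adjusted p = 0.0340, r = 0.52 without the 2 farthest dogs).

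ICAM1, the adhesion molecule by which leukocytes bind endothelium, was well above background in all dogs by its brightest probe. The log2 ratio was -0.40 to 0.69 (median 0.05) in AD dogs and -0.53 to 0.45 (median -0.01) in healthy dogs. Only 3 AD dogs lay above the highest healthy dog. The difference was 0.07 ± 0.14 (SE), with an adjusted p of 0.939 and a sign that turned without slide 2 (-0.11). The second probe gave 0.29 ± 0.18 (SE, adjusted p = 0.866) but was well above background in 13 AD dogs, and it did not follow the first (r = 0.06 in AD dogs, rho = 0.08, permutation p = 0.810).

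Co-variation of the 9 measured genes was described within each group, since a difference between groups would otherwise create it. In AD dogs, 23 of 36 pairs of genes had r above 0, with a median of 0.02 against -0.004 for all pairs of probes past the filter. In all, 3 pairs passed an adjusted permutation p of 0.05 over the 72 correlations of both groups: TNF with IL6, TNF with ICAM1 and IL6 with ICAM1. Of all pairs of probes past the filter, 7.26% had an absolute r at least as large as the smallest of these, 0.64, and 3 of 36 pairs of members is close to that share.

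These 3 pairs joined the same 3 genes. For TNF and IL6 r was 0.64 (rho = 0.64, permutation p = 0.00237, adjusted p = 0.0343), and 0.84 without the 2 farthest dogs. For TNF and ICAM1 r was 0.67 (rho = 0.68, permutation p = 0.0013, adjusted p = 0.0312), and 0.71 without those. For IL6 and ICAM1 r was 0.72 (rho = 0.66, permutation p = 0.00029, adjusted p = 0.0209), falling to 0.60 with an adjusted p of 0.115. Within slides, after each slide's mean was removed, r was 0.74, 0.69 and 0.68. Without the scan day of lowest signal, TNF with IL6 kept its call (r = 0.85, adjusted p = 0.00936), TNF with ICAM1 (r = 0.61, permutation, adjusted p = 0.107) and IL6 with ICAM1 (r = 0.51, adjusted p = 0.180) did not, and TNF with NFKB1 passed (r = -0.77, adjusted p = 0.0310). The same 3 pairs gave r of -0.40, 0.16 and 0.25 in the reference channel of the same arrays.

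**Figure D4:**
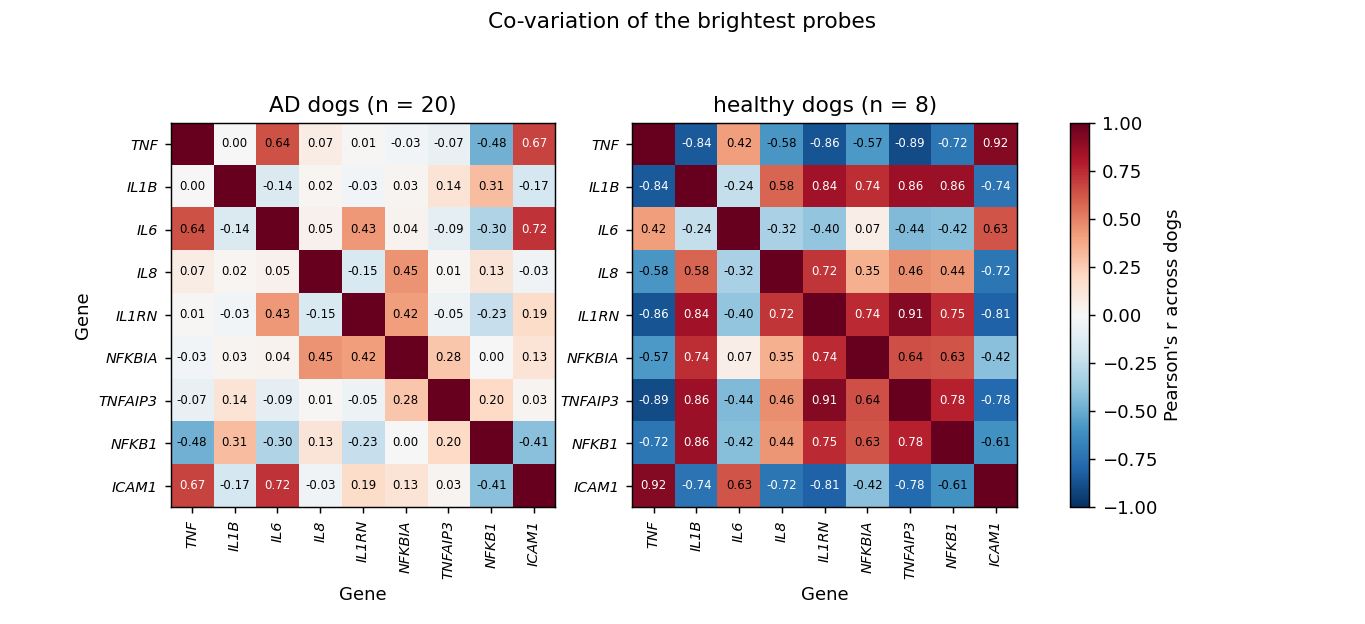
Pearson's r across dogs between the brightest probes of 9 genes, for 20 AD dogs (left) and 8 healthy dogs (right), from -1 (blue) to 1 (red). In AD dogs the block of TNF, IL6 and ICAM1 stands out with r of 0.64 to 0.72, and in healthy dogs r was 0.92 for TNF with ICAM1 and -0.89 for TNF with TNFAIP3, of which the second was -0.54 in the dog's channel alone.

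The other pairs of related function were less correlated in AD dogs than these 3. IL1B and its antagonist IL1RN had r = -0.03 (rho = -0.09, permutation p = 0.896), and TNF and IL1B r = 0.00 (rho = -0.13, permutation p = 0.985). NFKBIA reached r = 0.45 with IL8 (rho = 0.43, permutation p = 0.0462, adjusted p = 0.152, 0.51 without the 2 farthest dogs) and r = 0.42 with IL1RN (rho = 0.28, permutation p = 0.0678, adjusted p = 0.195). Neither passed the adjusted threshold. NFKBIA and TNF had r = -0.03 (rho = -0.11, permutation p = 0.910).

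In the 8 healthy dogs r ranged from -0.89 to 0.92, and 4 of 36 pairs passed. TNF went up with ICAM1 (r = 0.92, rho = 0.95, exact permutation p = 0.00238, adjusted p = 0.0343) and down with TNFAIP3 (r = -0.89, rho = -0.88, exact permutation p = 0.0031, adjusted p = 0.0360). IL1RN went with TNFAIP3 (r = 0.91, rho = 0.90, exact permutation p = 0.00129, adjusted p = 0.0312) and IL1B with NFKB1 (r = 0.86, rho = 0.95, exact permutation p = 0.0035, adjusted p = 0.0360). TNF and ICAM1 each had r below 0 with IL1B, IL1RN, IL8, NFKBIA, TNFAIP3 and NFKB1. Without the 2 farthest dogs the r of the 4 pairs was 0.81, -0.86, 0.86 and 0.93. None of the 36 pairs then passed, but at that number of dogs even r = 0.97 gave an adjusted p of 0.0750, so the loss of calls says nothing about stability. In the dog's channel alone TNF with ICAM1 kept its call (r = 0.89), while TNF with TNFAIP3 (r = -0.54, exact permutation, adjusted p = 0.345), IL1RN with TNFAIP3 (r = 0.78, adjusted p = 0.135) and IL1B with NFKB1 (r = 0.79, adjusted p = 0.135) did not. An absolute r of 0.86 or more was found in 2.57% of all pairs of probes in these dogs. Whether the correlations differed between AD and healthy dogs was not tested.

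The genes of the 3 pairs that passed in AD dogs also moved with 2 features of the arrays. The first is the mean log2 ratio of 4 red cell and reticulocyte markers, ALAS2, SLC4A1, EPB42 and AHSP, all well above background on every array, which ranged from -1.66 to 1.27 in AD dogs and -1.68 to 1.06 in healthy dogs. In AD dogs TNF followed it with r = 0.86 (rho = 0.85, permutation p = 1e-05, the smallest that 100000 permutations can give, adjusted p = 0.00162 over 162 relations of 9 genes and 9 marker lists), and r was 0.83 without the 2 farthest dogs and 0.85 within slides. IL6 gave r = 0.72 (rho = 0.69, permutation p = 0.00036, adjusted p = 0.0292 and by rank 0.0294, 0.57 without the 2 farthest dogs, 0.81 within slides), a call that depended on which markers made up the list. By Pearson's r these were the only 2 of the 162 relations with an adjusted p of 0.05 or less. The share of all probes that follow the red cell list as closely is not given, so these relations are not shown to be particular to TNF and IL6. ICAM1 gave r = 0.64 (rho = 0.74, permutation p = 0.00261, adjusted p = 0.110 and by rank 0.0248, 0.70 without the 2 farthest dogs). NFKBIA (r = 0.01), IL8 (r = 0.09), IL1RN (r = 0.22) and IL1B (r = -0.03) had an adjusted p of 0.835 or higher with it in AD dogs. NFKB1 ran the other way (r = -0.63, rho = -0.57, permutation p = 0.00346, adjusted p = 0.110, -0.46 without the 2 farthest dogs, -0.73 within slides).

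**Figure D5:**
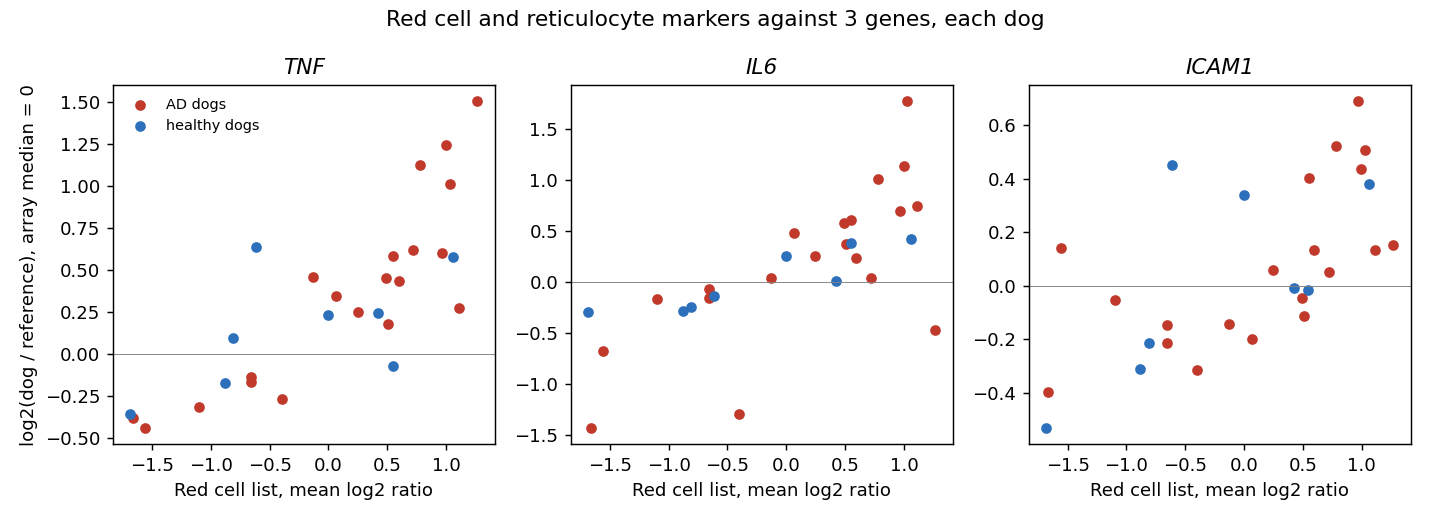
Log2 ratio of TNF, IL6 and ICAM1 (brightest probes) against the mean log2 ratio of 4 red cell and reticulocyte markers, each point being 1 AD dog (red) or healthy dog (blue). In AD dogs r was 0.86 for TNF, 0.72 for IL6 and 0.64 for ICAM1.

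In healthy dogs the red cell list gave r = 0.57 with TNF (rho = 0.60, exact permutation p = 0.142) and r = 0.90 with IL6 (rho = 0.98, exact permutation p = 0.00315, adjusted p = 0.110 and by rank 0.0248, 0.87 without the 2 farthest dogs). When a line on the red cell list was removed, r in AD dogs was 0.06 for TNF and IL6, 0.31 for TNF and ICAM1 and 0.49 for IL6 and ICAM1. In healthy dogs it was 0.87 for TNF and ICAM1, -0.84 for TNF and TNFAIP3, 0.88 for IL1RN and TNFAIP3 and 0.84 for IL1B and NFKB1. No pair of either group then had an adjusted p of 0.05 or less. No leukocyte list reached an adjusted p of 0.05 with any member by Pearson's r. By rank, IL6 with neutrophils (rho = 0.71, r = 0.60, permutation, adjusted p = 0.0259 by rank and 0.112 by r, r = 0.62 without the 2 farthest dogs) and IL1RN with NK and cytotoxic cells (rho = -0.69, r = -0.52, adjusted p = 0.0259 and 0.283, r = -0.71 without them) did so in AD dogs. The monocyte list, whose cells are a main source of these cytokines, gave r = -0.16 with IL8 and 0.41 with IL1RN in AD dogs (adjusted p = 0.835 and 0.601). The neutrophil list gave r = 0.40 with IL8, 0.60 with IL1RN and 0.46 with NFKBIA (adjusted p = 0.601, 0.112 and 0.425).

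The second feature is the GC contrast of an array, the median log2 ratio of the 20% of probes richest in G and C minus that of the poorest 20%, which was -0.35 to 0.88 in AD dogs and -0.13 to 0.70 in healthy dogs. The limits were 53.3% and 36.7%. The brightest TNF (58.3%) and ICAM1 (55.0%) and second NFKBIA (60.0%) probes are in the richest part, the brightest NFKB1 probe (35.0%) in the poorest. The sign of their r is thus partly built in, although the second ICAM1 probe (55.0%) had r = 0.07 in AD dogs. The IL6 (43.3%) and IL1RN (45.0%) probes are in neither. The share of all probes that follow the contrast as closely is not given. In AD dogs the GC contrast had r = 0.68 with TNF, 0.74 with IL6 and 0.76 with ICAM1 (permutation p = 0.00125, 0.00025 and 0.00014, each with an adjusted p of 0.00938 or less over 30 relations, and rho 0.75, 0.80 and 0.71). Without the 2 farthest dogs these were 0.57, 0.68 and 0.73. The second NFKBIA probe also followed it (r = 0.56, rho = 0.60, permutation p = 0.00844, adjusted p = 0.0304, 0.64 without the 2 farthest dogs), and the brightest NFKB1 probe ran the other way (r = -0.65, rho = -0.63, permutation p = 0.00252, adjusted p = 0.0151, -0.57 without them). In healthy dogs it had r = 0.88 with TNF and 0.95 with ICAM1, but -0.84 with IL1RN (exact permutation p = 0.00521, 0.00104 and 0.0110, rho 0.88, 0.95 and -0.90, and 0.87, 0.93 and -0.80 without the 2 farthest dogs), whereas IL1RN had r = 0.57 in AD dogs (rho = 0.58, permutation p = 0.00913, adjusted p = 0.0304, 0.50 without them). The 4 IL8 probes had r of -0.79 to -0.89 with the GC contrast in healthy dogs (rho -0.74 to -0.93, exact permutation, adjusted p 0.0223 to 0.0515, r -0.47 to -0.70 without the 2 farthest dogs) and 0.07 to 0.38 in AD dogs (adjusted p 0.178 or higher). The red cell list and the GC contrast themselves had r = 0.79 in AD dogs (rho = 0.74, permutation p = 7e-05, 0.77 without the 2 farthest dogs). After a line on the GC contrast was removed, r in AD dogs was 0.27 for TNF and IL6, 0.34 for TNF and ICAM1 and 0.36 for IL6 and ICAM1. In healthy dogs it was 0.54 for TNF and ICAM1, -0.67 for TNF and TNFAIP3 and 0.75 for IL1RN and TNFAIP3, and IL1B with NFKB1 stayed at 0.84. No pair of either group then had an adjusted p of 0.05 or less. The part of red cells, base composition or RNA quality in these correlations was not tested.

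The differences of IL8, IL1RN and NFKBIA between the groups changed little with either feature as a covariate. With the red cell list as a covariate they were 0.65 for the brightest IL8 probe, 0.39 for IL1RN, and 0.33 and 0.43 for NFKBIA, and with the GC contrast 0.67, 0.37, 0.30 and 0.41. These fits used a common slope for both groups, but r with the GC contrast had opposite signs in the groups for each of these genes. For IL1RN it was -0.84 in healthy dogs and 0.57 in AD dogs, and for the second NFKBIA probe -0.60 and 0.56. Such slopes partly cancel in a common slope, and the part of either feature in these differences was not tested. The median of the red cell list was 0.50 for AD dogs against -0.31 for healthy dogs, the ranges overlapped, and 0 of its 4 genes were called. By contrast, the TNF difference was 0.04 with the red cell list as a covariate, against 0.22 without it.

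The transcripts most like each member, over 28 arrays with group means removed and among 10148 other named genes, are given as a description, since they were picked for their likeness. NFKBIA was most like DUSP1 (r = 0.76, rho = 0.61), a phosphatase that shuts off stress-activated kinases, and then ZNF445 (r = 0.63, rho = 0.55). TNF was most like TET3, a DNA demethylation enzyme (r = 0.96, rho = 0.95), and SLC16A1, a lactate transporter (r = 0.95, rho = 0.92). IL1RN was most like the adhesion gene CEACAM1 (r = 0.93, rho = 0.88) and TOB1, an antiproliferative gene (r = 0.90, rho = 0.82). For IL6 these were TMUB2 and PHLDB2 (r = 0.91 for both), for ICAM1 KCNA7 and POP7 (r = 0.89 and 0.88), and for NFKB1 GATAD2A and CASK (r = 0.79 and 0.78). The closest to IL8, STXBP5 and BBS9, reached only r = 0.66 and 0.63, those of IL1B, RPTOR and B3GNT8, 0.71 and 0.64, and those of TNFAIP3, BRMS1 and USB1, 0.74 and 0.69. Members were left out of the genes compared, so these lists do not show how close the members lie to each other.

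The rest of the pathway was covered by 84 genes, of which 75 were on the array and 70 passed the filter on signal. None was called by limma, and 5 had an unadjusted p under 0.05, 3 with the higher and 2 with the lower mean in AD dogs, against 6.12% of all probes. The log2 difference was above 0 for 46 of the 70 and for 47.9% of all probes, with a median of 0.06 against -0.01 for all probes.

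Of 15 inhibitors and feedback genes measured, 14 had a difference above 0 (median 0.12), against 47.9% of all probes tested. All of these differences rest on the same healthy dogs, so the genes are not independent. The largest were DUSP1 at 0.65 ± 0.24 (SE, unadjusted p = 0.0111, adjusted p = 0.548, above the healthy mean in 17 of 20 AD dogs) and ZFP36, which destabilizes cytokine mRNA, at 0.53 ± 0.25 (unadjusted p = 0.0409, adjusted p = 0.779, 16 of 20). ITCH, a ubiquitin ligase, was the 1 gene below 0, at -0.23 ± 0.10 (unadjusted p = 0.0233, adjusted p = 0.660, above the healthy mean in 2 of 20 AD dogs). DUSP1 and JUNB, at 0.53 ± 0.20 (unadjusted p = 0.0119, adjusted p = 0.552), are also early response genes that handling or stress can induce. Of 6 such genes measured, 3 were above 0, with FOS at 0.41 ± 0.22 (limma, unadjusted p = 0.0674) beside DUSP1 and JUNB. The others, JUN, EGR1 and IER2, had -0.20, -0.16 and -0.13.

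Among ligands, 4 of 8 had a difference above 0 (median 0.01), and IL18, an inflammasome cytokine, had 0.49 ± 0.20 (SE, unadjusted p = 0.0189, adjusted p = 0.620) while LTA, a lymphotoxin, had -0.16 ± 0.11. Among receptors, 6 of 10 were above 0 (median 0.07), and IL6ST, the shared signaling chain of the IL6 family, had -0.32 ± 0.13 (unadjusted p = 0.0213, adjusted p = 0.643) while IL1RAP, the accessory chain of the interleukin 1 receptor, had 0.22 ± 0.13. The 10 adaptors and kinases (7 above 0, median 0.01) and the 4 remaining NF-kB subunits (2 above 0, median -0.004) had the smallest unadjusted p for MAP3K14 (0.157, 0.21 ± 0.14), IKBKB (0.339, -0.09 ± 0.09), RELA (0.472, 0.08 ± 0.11) and REL (0.759, -0.06 ± 0.19). Of 23 other NF-kB targets, 13 were above 0 (median 0.03), led by the urokinase receptor PLAUR at 0.37 ± 0.19 (unadjusted p = 0.0585) and its ligand PLAU at 0.36 ± 0.20 (unadjusted p = 0.0760).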

How the data were processed

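RNA of 28 dogs was measured on two-color canine arrays against 1 common reference. Signals were read by the authors with Feature Extraction of Agilent (10.7.3.1 per the submitters' notes), which subtracts background and normalizes dyes by Lowess. The deposited files hold spot intensity on a linear scale and a log10 ratio, and the authors' table of processed values repeats that log10 ratio. Here the log2 ratio of the deposited processed signals was centered on each array's median. Spots with an outlier flag were set to missing, spots of a probe were averaged, and a probe was kept when it was well above background somewhere and 1 of the 4 median signals (channel by group) exceeded 100. The groups were compared by limma 3.58.1 in R 4.3.3 (lmFit, eBayes, Benjamini-Hochberg over 30202 probes, threshold 0.085). Correlations used 100000 permutations in AD dogs and all 40320 orders in healthy dogs (numpy 2.4.6), two-sided, adjusted over the family named. The brightest probe stands for a gene, likeness is Pearson's r, and the 2 pathway genes of smallest p per role were named, while ZFP36 and the early response genes were named after their values were seen. The members and lists were chosen with earlier results of these data known. All 10 names matched RefSeq's gene table, IL8 as CXCL8. Scripts were tested on simulated data. The number of arrays limits the precision, and array signals hold no depth. Alternatives were the filters, background correction, scaling, the dog's channel alone, the authors' log ratios, slide and scan day as random blocks, array weights, each slide left out and the dog number as a block. The covariates (GC contrast, red cell list) were added after seeing the data, and 1 red cell marker is not reported here and was left out of that list.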

Additional observations from a re-analysis of the deposited data

How the results depend on the processing

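Of 353 values of the 15 probes under 24 other settings, 331 kept their sign and their side of the threshold, 3 passed it anew and 19 changed sign. No probe was called in the main fit, so no call could be lost, and these counts do not measure changes in size. The brightest IL8 probe, for example, kept its sign while falling from 0.65 to 0.08 without slide 3. NFKBIA, IL8 and IL1RN kept their sign under every setting tried.

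Probes called over the whole array were 0, but 3 without the filter, 1251 in the dog's channel alone and 849 with array weights. Probes with an unadjusted p under 0.05 were 1847, but 3127 without the filter, 5879 in the dog's channel, 5701 with array weights, 1201 with slide as a random block, 2807 without the scan day of lowest signal, and 785 (slide 3) to 2778 (slide 5) with 1 slide left out. Of the 15 probes, 2 were called in the dog's channel and 1 with array weights. At an unadjusted p under 0.05 there were 5, but 3 with normexp and loess, 2 with slide as a random block, and 0 (slide 3) to 7 (slide 2), with 1 without slide 4. Of the 70 pathway genes, 8 were called in the dog's channel and 2 with array weights, and 20 and 12 had an unadjusted p under 0.05 there, against 5, with 1 (slide 3) to 7 (slide 8) when slides were left out.

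The dog numbers did not pair the groups, since the correlation of deviations ran from -0.36 to 0.42 and exceeded 0.1 for 4 of 8 numbers. With the replicate block 5177 of all probes, 8 member probes and 10 pathway genes had an unadjusted p under 0.05, and 0 were called.

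Signs turned for TNF at -0.001 (normexp and loess), IL1B at -0.052 (array weights) and -0.030 (without the scan day of lowest signal), and IL6 at -0.054 (dog's channel) and -0.043 (red cell list as covariate). TNFAIP3 was 0.23 in the dog's channel and -0.17 (slide 3) to 0.030 (slide 2) with 1 slide left out. The brightest NFKB1 probe was 0.012 with normexp and loess, 0.088 with quantile scaling, 0.027 and 0.059 with the GC contrast and the red cell list as covariate, 0.056 as the mean of all probes, and -0.088 (slide 3) to 0.072 (slide 2) with slides left out. The brightest ICAM1 probe was -0.045 in the dog's channel, -0.022 with the red cell list and -0.11 (slide 2) to 0.25 (slide 3) with slides left out, and the second was -0.069 in the dog's channel.

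Pairs of genes passing in AD dogs were 3, but 1 with normexp and loess and 0 with the GC contrast or the red cell list removed. Without the scan day of lowest signal 2 passed, of which 1 was among the 3. In healthy dogs they were 4, but 2 with normexp and loess, 8 by Spearman's rho, and 0 without the 2 farthest dogs and with either feature removed, although their absolute r stayed at 0.81 to 0.93 without those dogs, 0.84 to 0.88 without the red cell list and 0.54 to 0.84 without the GC contrast. In the dog's channel 5 passed, of which 1 was among the 4. The causes of these changes were not tested. Slide and scan day lie within groups, so no comparison within a batch was possible, and precision rests on 8 healthy dogs.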
